A study of Arabidopsis thaliana with 9 samples.

Results

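The decuple mutant jazD is an Arabidopsis thaliana line that lacks most of the JAZ repressors of jasmonate signalling, and its rosette transcriptome is described here against that of wild-type Col-0. The comparison rests on 6 of the 9 RNA-seq libraries of the study, 3 of jazD and 3 of Col-0, and the remaining 3 libraries came from the quintuple mutant jazQ. The libraries were chosen by genotype label alone. Each library was made from whole rosettes, without roots, of a pool of about 20 plants aged 23 days, grown at 20 °C under days of 16 h and nights of 8 h, with mutant and wild-type plants in shared trays and no treatment named. The labels name the lines but not the mutated genes, and mark the jazD accession as Col-0 with an asterisk that is not explained. As background knowledge of the lines, jazD is mutated in all of the 13 JAZ genes except JAZ8, JAZ11 and JAZ12. The 5 genes JAZ10, JAZ9, JAZ4, JAZ3 and JAZ1 are the ones also mutated in jazQ. Each mutant was a single line, and a pool gives the average of its plants.

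JAZ proteins bind MYC and related transcription factors and recruit co-repressors to their target genes. When a plant is wounded or attacked by chewing insects or necrotrophic fungi, jasmonoyl-isoleucine joins the receptor COI1 to JAZ proteins, which are then degraded, and the target genes are transcribed. Jasmonate signalling is known in rosettes for raising defence proteins and defence metabolites and for slowing leaf growth.

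The libraries held 17593005 to 18914928 counts in jazD and 16174195 to 18488767 counts in Col-0, summed over 33323 listed genes, of which 25465 had a count in some library. The tables give expected counts and TPM, a level per transcript length scaled to the same total in each library. Of the listed genes, 19405 had enough counts to be tested with edgeR's quasi-likelihood test on the counts of all 9 libraries, with the threshold for a call at an adjusted p of 0.05 (Benjamini-Hochberg over all genes tested). Log2 fold changes are jazD over Col-0 and are given ± an approximate SE based on that fit of 3 libraries per genotype. This SE may be too small for genes with few counts in one genotype. On the first principal component, which held 64.12% of the variance, the jazD libraries lay at -59.31 to -57.93 and the Col-0 libraries at 24.02 to 32.64, with jazQ between 26.43 and 32.53. The third Col-0 library stood higher than the other Col-0 libraries in many jasmonate-linked genes, and values without it are given where they differ by over 1.5 times. Root and floral markers were almost absent from the tissue: 1 of 9 root markers (NRT2.1, 0.73, edgeR adjusted p = 0.0698) and 1 of 8 floral markers (FLC, 0.10, edgeR adjusted p = 0.74) had enough counts to be tested, and their lists summed to 0.000213% and 0.000464% of all TPM in jazD, against 0.00011% and 0.000495% in Col-0. Trichome and guard cell markers summed to 0.00273% and 0.0059% of TPM in jazD, against 0.00212% and 0.00667% in Col-0. In whole-rosette RNA, fewer cells of a type and less RNA per cell cannot be told apart.

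The mutated JAZ genes showed which transcripts remained in the mutant. JAZ1 stood at 1.91, 2.5 and 2.14 TPM in jazD, against 24.9, 26.1 and 23.7 TPM in Col-0 (-3.43 ± 0.11, edgeR adjusted p = 1.6e-10). JAZ2 stood at 3.35, 2.54 and 3.18 TPM in jazD, against 21.5, 22.2 and 27.8 TPM in Col-0, and JAZ6 at 11.8, 11.6 and 13.7 TPM in jazD, against 71.2, 59.8 and 60.2 TPM in Col-0. All 3 fell, and no jazD library reached the level of any Col-0 library. JAZ7 had 3 counts over the jazD libraries, against 67 over the Col-0 libraries, a ratio of 22.6-fold lower in jazD with a 95% counting interval of 7.74 to 110. Its edgeR adjusted p was 0.0937, and the DESeq2 adjusted p was 0.00137. JAZ4 had too few counts to be tested, and JAZ5 did not pass (0.71 ± 0.66, edgeR adjusted p = 0.498). The second jazQ library, which enters the spread of the fit, held 21.9 TPM of JAZ5, against 6.19 and 5.37 TPM in the others of jazQ. Without it the edgeR adjusted p was 0.0358 for JAZ5, as higher, and 0.00186 for JAZ7, as lower.

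Another 4 JAZ transcripts of the mutated set were more abundant in jazD than in Col-0. JAZ13, a short divergent repressor, reached 36.9, 39.3 and 39.1 TPM in jazD, against 0.71, 0.75 and 1.1 TPM in Col-0 (5.54 ± 0.33, edgeR adjusted p = 9.55e-07). JAZ10, which is known to damp the response after its own induction, reached 55.1, 58.2 and 43.9 TPM in jazD, against 4.38, 3.95 and 4.43 TPM in Col-0 (3.69 ± 0.33). JAZ9 and JAZ3 each rose by 1.15 on the log2 scale. A value per gene sums reads over the whole transcript and does not show whether the transcript is complete, so these levels check the labels for JAZ1, JAZ2, JAZ6 and JAZ7 only. Among the unmutated members, JAZ8, a repressor that resists degradation, stood at 13.8, 21.8 and 16.4 TPM in jazD, against 0.42, 1.62 and 1.03 TPM in Col-0 (4.15 ± 0.96, edgeR adjusted p = 0.0204), with adjusted p between 0.0554 and 0.0775 without 1 of the 3 Col-0 libraries or the second jazD library. JAZ12 rose by 0.32, and JAZ11 stood at 0.05 (edgeR adjusted p = 0.804). In all, 6 of 12 tested JAZ genes rose and 3 fell. All 3 falls and 4 of the rises were of mutated genes. The 13.3% and 12.5% of all genes tested are thus no fair background for these counts.

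Over the whole transcriptome, 5006 of 19405 tested genes, or 25.8%, were called between jazD and Col-0. Of these, 2580 (13.3% of the genes tested) were higher in jazD and 2426 (12.5%) were lower. The median log2 fold change was 0.626 among the genes called higher, -0.461 among those called lower and -0.003 over all genes tested. The 3 jazD and the 3 Col-0 libraries did not overlap in CPM, counts scaled to library size, for 8265 genes, or 42.6%. Most genes named below were picked by their p or their change, so a lack of overlap in them describes their values and adds no support. The share of calls that were higher was 51.5%, and 36.2% and 36.7% on the log2 TPM scale with pseudocounts of 0.1 and 1.

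The rises were larger than the falls, except among the most extreme changes. At least 2-fold changes were called for 789 higher (4.07%) and 385 lower genes (1.98%), together 6.05% of the genes tested. At least 8-fold changes were called for 146 higher and 36 lower genes, at least 32-fold changes for 41 higher and 15 lower genes, and at least 128-fold changes for 12 in each direction. The direction of the calls also varied with the level of expression. When the tested genes were ordered by mean CPM and split into 5 equal bins, the share called lower was 7.88%, 9.07%, 11.2%, 14.7% and 19.7% from the least to the most abundant bin. The share called higher stayed between 11.9% and 14.7% in these bins. The median size of a called change decreased from 1.229 on the log2 scale in the least abundant bin to 0.361 in the most abundant bin. What part the number of counts had in these shares was not tested.

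**Figure D1:**
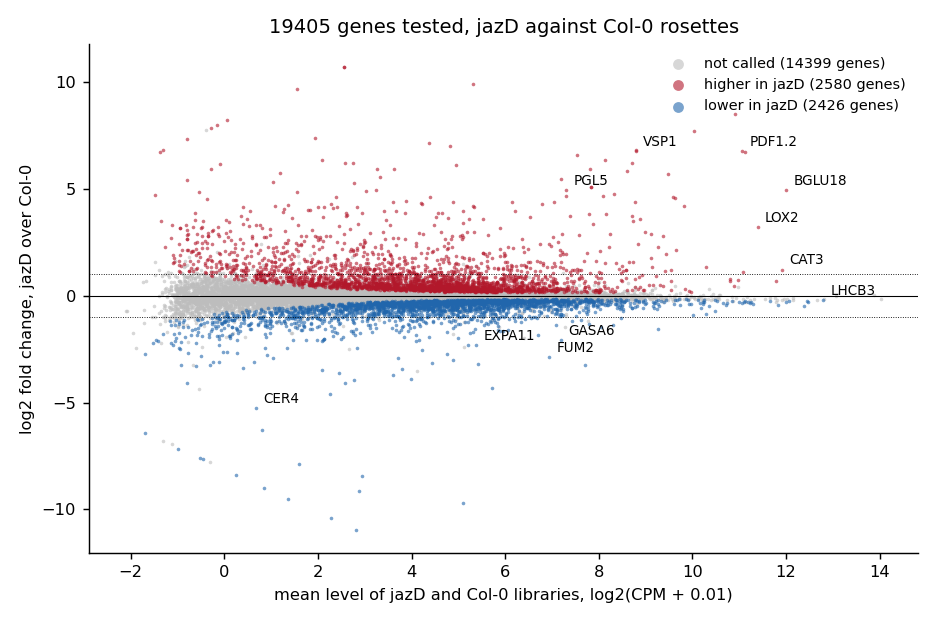
Each point is one of 19405 tested genes, with its mean log2(CPM + 0.01) over the jazD and Col-0 libraries on the horizontal axis and its log2 fold change, jazD over Col-0, on the vertical axis. The 2580 genes called higher and the 2426 called lower are coloured, and rises past the dotted 2-fold line outnumber falls past it, 789 against 385.

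Defence proteins took a larger share of all transcripts in the mutant rosettes. Plant defensins made up 3.41%, 3.58% and 3.16% of all TPM in jazD, against 0.0533%, 0.0465% and 0.0792% in Col-0. Wound-induced proteins such as vegetative storage proteins and lipoxygenase made up 0.685%, 0.724% and 0.701% in jazD, against 0.0678%, 0.0673% and 0.086% in Col-0. Both lists were far higher in each jazD library than in any Col-0 library. Glutathione S-transferases of the tau and phi classes, which conjugate glutathione to reactive compounds, summed to a mean of 0.817% in jazD and 0.414% in Col-0. Myrosinases and the proteins that direct glucosinolate breakdown summed to 0.861% in jazD and 0.455% in Col-0, and the arginine and polyamine enzymes to 0.184% in jazD and 0.0647% in Col-0.

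The growth-linked families took a smaller share of the transcripts. Aquaporins of the plasma membrane and the tonoplast summed to 0.287%, 0.266% and 0.251% of TPM in jazD, against 0.43%, 0.395% and 0.389% in Col-0. GASA peptides, small secreted gibberellin-regulated proteins, summed to 0.043%, 0.0386% and 0.0425% in jazD, against 0.11%, 0.0953% and 0.109% in Col-0. Xyloglucan transglucosylases, which remodel the cell wall, summed to a mean of 0.0914% in jazD and 0.163% in Col-0. For the tricarboxylic acid cycle the mean share was 0.173% in jazD and 0.175% in Col-0, and for commonly used reference transcripts 0.309% in jazD and 0.325% in Col-0. TPM is a share, so a rise of one group lowers the share left to all others.

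**Figure D2:**
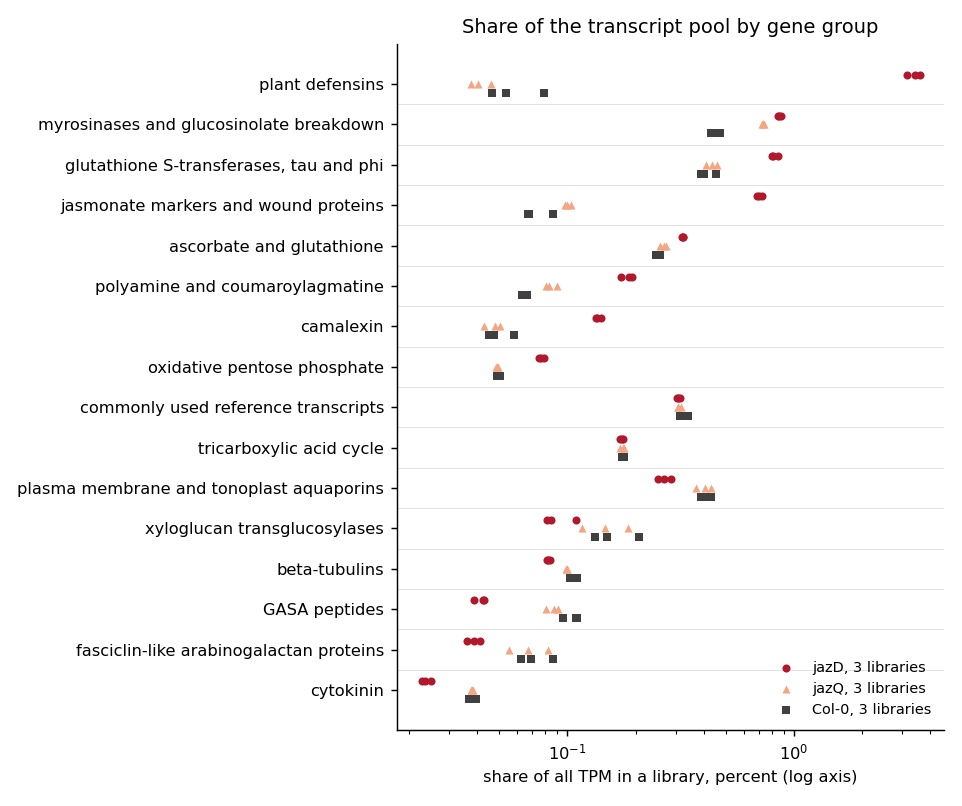
Share of all TPM, in percent on a log axis, taken by each of 16 gene groups in each library, with jazD as circles, jazQ as triangles and Col-0 as squares. The defensins stand furthest apart, with a mean of 3.38% in jazD and 0.0597% in Col-0, while the tricarboxylic acid cycle lies at 0.173% in jazD and 0.175% in Col-0.

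Plant defensins are small secreted antifungal peptides, and the PDF1 genes are the classical readout of combined jasmonate and ethylene signalling. Of 11 listed defensins, 8 had enough counts to be tested. Of these, 6 rose (75.0%) and 0 fell, against 13.3% and 12.5% of all genes tested (median log2 fold change 5.65). PDF1.2 had 12760, 13830 and 11790 TPM in jazD, against 90.7, 58.9 and 223 TPM in Col-0 (6.76 ± 0.58, edgeR adjusted p = 0.000273). PDF1.3 had 10310, 10700 and 9360 TPM in jazD, against 24.2, 11.6 and 50.2 TPM in Col-0 (8.52 ± 0.53, edgeR adjusted p = 5.19e-05). PDF1.2c had 6320, 6307 and 5448 TPM in jazD, against 20.2, 10.7 and 59.2 TPM in Col-0. PDF1.2b had the lowest jazD level of these 4, 4371, 4571 and 4570 TPM in jazD, against 34.7, 16.4 and 71.7 TPM in Col-0. Every jazD library stood far above every Col-0 library for each of them, and within Col-0 the third library held the highest value of each. Without that library the log2 fold changes were 7.48 for PDF1.2, 9.2 for PDF1.3, 8.67 for PDF1.2c and 7.52 for PDF1.2b. The coding sequences of these 4 genes, each 243 bases long, differ from each other at 13 to 21 positions, so reads may be split between them and the level of each copy is less certain than their sum.

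The defensins outside this group changed less. PDF1.1 had 79 counts over the jazD libraries, against 3 over the Col-0 libraries, a ratio of 26.0 with a 95% counting interval of 8.9 to 126. Its log2 fold change was 4.54, and 5.39 without the first Col-0 library. PDF2.2, a constitutive family member, had 200.4, 256 and 248 TPM in jazD, against 177, 199 and 208 TPM in Col-0 (0.35 ± 0.11, edgeR adjusted p = 0.0479). Without 1 of 6 single libraries PDF2.2 no longer passed (adjusted p 0.0576 to 0.153). PDF2.3 stood at -0.06 (edgeR adjusted p = 0.584). AT2G16367, annotated as a defensin-like gene and not on the list, was almost silent in Col-0, with 225, 236 and 195 TPM in jazD, against 1.92, 1.02 and 1.79 TPM in Col-0 (7.14 ± 0.18).

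The upstream sequences of 5 genes with large rises are shown because they hold a G-box (CACGTG), the core bound by MYC factors, or a GCC-box (GCCGCC), the core bound by ERF factors. Each run gives the 250 bases before the annotated gene start, 5′ to 3′ on the gene's strand, from the RefSeq TAIR10.1 assembly, with the motif letters in capitals. The deposited tables name TAIR10 and hold no coordinates. The regions are chr5:17907639-17907888 for PDF1.2 (minus strand), chr2:11088873-11089122 for PDF1.2b (plus strand), chr3:10523931-10524180 for AT3G28220 (plus strand), chr5:8338033-8338282 for PGL5 (minus strand) and chr3:7879811-7880060 for JAZ13 (minus strand).
PDF1.2: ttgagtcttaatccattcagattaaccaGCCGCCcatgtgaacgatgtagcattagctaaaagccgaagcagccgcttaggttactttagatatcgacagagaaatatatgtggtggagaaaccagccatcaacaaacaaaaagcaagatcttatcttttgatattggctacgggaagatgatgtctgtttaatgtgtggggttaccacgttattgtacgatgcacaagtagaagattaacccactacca
PDF1.2b: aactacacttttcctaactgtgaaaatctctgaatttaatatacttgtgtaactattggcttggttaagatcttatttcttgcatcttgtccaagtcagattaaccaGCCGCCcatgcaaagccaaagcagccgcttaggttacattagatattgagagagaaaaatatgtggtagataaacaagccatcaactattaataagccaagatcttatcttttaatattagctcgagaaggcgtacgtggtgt
AT3G28220: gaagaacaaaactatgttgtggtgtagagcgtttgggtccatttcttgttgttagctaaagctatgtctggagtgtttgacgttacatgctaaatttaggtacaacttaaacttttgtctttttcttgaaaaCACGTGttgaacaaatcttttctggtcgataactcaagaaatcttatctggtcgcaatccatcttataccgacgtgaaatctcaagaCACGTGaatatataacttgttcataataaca
PGL5: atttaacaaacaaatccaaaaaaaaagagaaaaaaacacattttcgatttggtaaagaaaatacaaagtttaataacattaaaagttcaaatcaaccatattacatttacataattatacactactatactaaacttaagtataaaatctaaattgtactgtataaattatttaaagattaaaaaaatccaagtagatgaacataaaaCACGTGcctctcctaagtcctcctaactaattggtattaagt
JAZ13: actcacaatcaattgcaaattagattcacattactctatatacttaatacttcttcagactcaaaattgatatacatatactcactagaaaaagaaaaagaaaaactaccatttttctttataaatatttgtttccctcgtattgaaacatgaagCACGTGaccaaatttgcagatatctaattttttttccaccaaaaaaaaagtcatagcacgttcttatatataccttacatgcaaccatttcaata

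The GCC-box lay 222 bases before the annotated start in PDF1.2 and 143 bases before it in PDF1.2b, inside a run of 22 letters that both promoters share, tcagattaaccaGCCGCCcatg. PDF1.2 and PDF1.2b lie on chromosomes 5 and 2, so this run is shared between distant copies. The 250 bases before PDF1.3 and PDF1.2c hold neither motif. AT3G28220 holds G-boxes at 118 and 31 bases before its start, PGL5 at 42 bases and JAZ13 at 95 bases. Of 127 named genes with a window, 19 hold a G-box and 4 a GCC-box in the 250 bases before the start. Both higher and lower genes are among them. A G-box is held by JAZ13, which rose, and by JAZ2, which fell. A GCC-box is held by WRKY26, which rose, and by TTR1, which fell. No share over all genes is given for these 250 bases, so the counts are a description only.

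Across all tested genes, 4 motifs were counted on both strands in windows of 300 bases, 250 before and 50 after the start, which could be read for 19325 genes. None of the 4 motifs can contain another. CACGTG was present in 16.6% of windows of genes at least 8-fold higher in jazD (24 of 145), in 12.8% of those at least 2-fold higher, in 4.69% of those at least 2-fold lower and in 8.79% of all windows. GCCGCC was present in 7.59% of windows of genes at least 8-fold higher (11 of 145), in 5.98% of those at least 2-fold higher, in 0.521% of those at least 2-fold lower (2 of 384) and in 2.74% of all windows. The share of both motifs was thus highest in the genes with the largest rises and lowest in the genes that were lower. TTGACC, the W-box core of WRKY factors, was present in 11.7% of windows of genes at least 8-fold higher (17 of 145). It was present in 15.1% of those at least 2-fold higher, in 11.5% of those at least 2-fold lower and in 14.3% of all windows. TGACG, the core bound by TGA factors, was present in 17.9% of windows of genes at least 8-fold higher (26 of 145). It was present in 22.9% of those at least 2-fold higher, in 24.2% of those at least 2-fold lower and in 23.7% of all windows. These shares describe letters in windows and carry no test.

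**Figure D3:**
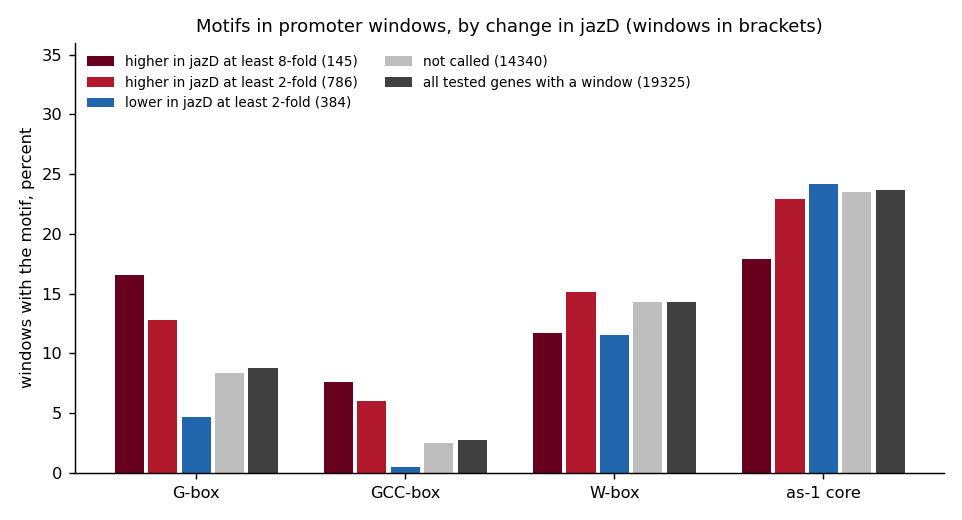
Bars give the percent of promoter windows of 300 bases that hold each motif on either strand, for genes at least 8-fold higher, at least 2-fold higher and at least 2-fold lower in jazD, for genes not called and for all tested genes. CACGTG and GCCGCC are most frequent among genes at least 8-fold higher, at 16.6% and 7.59%, against 8.79% and 2.74% of all windows.

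The largest gains in TPM, besides the defensins, were in transcripts of a few abundant proteins. BGLU18, a beta-glucosidase of the endoplasmic reticulum, had 4921, 5296 and 5167 TPM in jazD, against 160.3, 141 and 225 TPM in Col-0 (4.95 ± 0.16, edgeR adjusted p = 3.51e-08). AT3G28220, annotated as a TRAF-like family protein, had 3871, 4211 and 4024 TPM in jazD, against 32.8, 26.4 and 61.6 TPM in Col-0 (6.72 ± 0.35). PR4, a chitin-binding protein, had 2242, 2420 and 2228 TPM in jazD, against 89.9, 102 and 117 TPM in Col-0 (4.56 ± 0.19). Over these 3 genes the lowest jazD value was 2228 TPM and the highest Col-0 value 225 TPM. CAT3 (AT1G20620), a catalase that removes hydrogen peroxide, was already abundant in Col-0 and reached 3449, 3423 and 3666 TPM in jazD, against 1541, 1525 and 1736 TPM in Col-0 (1.21 ± 0.09). AT5G42530, of unknown function, reached 5724, 5455 and 6935 TPM in jazD, against 4013, 4215 and 3476 TPM in Col-0 (0.70 ± 0.10).

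The largest losses in TPM, which is a share, were in photosynthesis and other abundant leaf genes, and they were small as fold changes. RCA, the activase of rubisco, had 3106, 3018 and 2873 TPM in jazD, against 4608, 4554 and 4218 TPM in Col-0 (-0.50 ± 0.07, edgeR adjusted p = 0.000118). LHB1B1, a light-harvesting protein of photosystem II, had 4105, 3909 and 3432 TPM in jazD, against 5790, 5355 and 5245 TPM in Col-0 (-0.44 ± 0.10). GER1, a germin-like cell wall protein, had 1310, 1092 and 1223 TPM in jazD, against 2417, 2231 and 2267 TPM in Col-0 (-0.86 ± 0.09), and AT2G45180, a lipid-transfer-like protein, had 2149, 1937 and 2082 TPM in jazD, against 3770, 3257 and 3494 TPM in Col-0 (-0.70 ± 0.11). In each of these genes, picked for their losses, the 3 jazD libraries lay below the 3 Col-0 libraries. Over all genes tested, 42.6% had no overlap, in either direction. Among the other large losses, LHCB5 fell by 0.25, whereas LHCB3 (-0.20), LHB1B2 (-0.29), RBCS3B (-0.32), PSAF (-0.25) and PSAO (-0.22) passed with all libraries but not without 1 or more of the 6 single libraries, where adjusted p ranged from 0.0509 to 0.127.

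Proteins that leaves make after wounding rose together. Of 14 listed jasmonate markers and wound proteins, all tested, 12 rose and 0 fell (median log2 fold change 3.08), against 13.3% of all genes tested that rose. VSP1, a vegetative storage protein and acid phosphatase, had 1005, 1065 and 1004 TPM in jazD, against 4.44, 3.15 and 21.9 TPM in Col-0 (6.75 ± 0.66, edgeR adjusted p = 0.000555), and 21.3, 19.4 and 18 TPM in jazQ. Col-0 library 3 was the highest of the Col-0 libraries, and without it the log2 fold change was 8.14. LOX2, the chloroplast lipoxygenase that starts jasmonate synthesis in leaves, had 2045, 2096 and 2164 TPM in jazD, against 222, 217 and 288 TPM in Col-0 (3.19 ± 0.10, edgeR adjusted p = 1.55e-10). JAL35, a jacalin-like lectin, had 1250, 1428 and 1330 TPM in jazD, against 73.3, 62.2 and 95.8 TPM in Col-0 (4.19 ± 0.15). For these 3 genes the lowest jazD library was several times the highest Col-0 library. NATA1, which acetylates ornithine, rose by 5.92 (6.81 without the third Col-0 library), CORI3, a cystine lyase, by 3.83, CLH1, a chlorophyllase, by 3.38, and KTI1, a trypsin inhibitor, by 2.96. LAP2 (-0.10, edgeR adjusted p = 0.303) and TAT3 (0.53, edgeR adjusted p = 0.108) did not pass.

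The proteins that act on glucosinolates rose with a clear difference in size between members. Myrosinases cleave glucosinolates when tissue is damaged, and nitrile specifier proteins steer the product to nitriles. Of 16 listed genes, 15 were tested, and 12 rose and 1 fell (median 0.90), or 86.7% called against 25.8% of all genes tested. NSP1, a nitrile specifier, had 558, 674 and 635 TPM in jazD, against 89.9, 84.9 and 95.5 TPM in Col-0 (2.86 ± 0.08, edgeR adjusted p = 4.05e-11). MBP1, a myrosinase-binding protein, had 1007, 1078 and 1010 TPM in jazD, against 17, 13.7 and 32.7 TPM in Col-0 (5.68 ± 0.33). The myrosinases themselves were abundant in both genotypes and rose less: TGG1 had 2950, 2907 and 2949 TPM in jazD, against 1998, 1767 and 1977 TPM in Col-0 (0.69 ± 0.06), and TGG2 had 2008, 1959 and 1872 TPM in jazD, against 1063, 853 and 962 TPM in Col-0 (1.1 ± 0.08). In all 4 genes the libraries of the genotypes did not overlap. NIT2 and NIT3, nitrilases, rose by 3.58 and 1.5, and MVP1, a lipase-like protein that binds myrosinase, rose by 1.58. NSP4 stood at -0.43 (edgeR adjusted p = 0.0204), with adjusted p up to 0.0949 without single libraries of either genotype, and ESM1, which favours isothiocyanates, stood at -0.16 (edgeR adjusted p = 0.164).

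Camalexin, an indole phytoalexin, is made from tryptophan through CYP79B2 and CYP79B3. All 7 listed camalexin genes rose (median 1.69), against 13.3% of all genes tested. CYP79B3 had 113, 123 and 117 TPM in jazD, against 22.2, 22.3 and 25.1 TPM in Col-0 (2.42 ± 0.08, edgeR adjusted p = 1.82e-10). CYP71B15, the last enzyme of the route, had 61.4, 55.6 and 63.5 TPM in jazD, against 11.6, 21.4 and 14.6 TPM in Col-0 (2.00 ± 0.31). GSTF6, which adds glutathione in this route, was the most abundant member, with 745, 710.2 and 808 TPM in jazD, against 234, 336 and 236 TPM in Col-0 (1.56 ± 0.15). The second Col-0 library was the highest of the Col-0 libraries for CYP71B15 and GSTF6 but lay below all 3 jazD libraries.

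Enzymes that feed this chemistry with aromatic amino acids rose less. Of 20 tested shikimate and aromatic amino acid genes, 8 rose and 1 fell (median 0.18), or 45.0% called against 25.8% of all genes tested. DHS1, the entry enzyme of the shikimate pathway, had 149, 160.5 and 166 TPM in jazD, against 65.5, 73.1 and 80.1 TPM in Col-0 (1.2 ± 0.08, edgeR adjusted p = 2.86e-07). CM3, a chorismate mutase, rose by 0.83, and ADT1, an arogenate dehydratase of phenylalanine synthesis, fell by 0.42 while its relative ADT4 rose by 0.51. Of 19 phenylpropanoid and monolignol genes, 5 rose and 3 fell (median 0.09), or 42.1% called, against 25.8% of all genes tested. ALDH2C4, which makes ferulic and sinapic acid, had 248, 243 and 262 TPM in jazD, against 111, 133 and 126 TPM in Col-0 (1.1 ± 0.07), and PAL1, the entry enzyme, rose by 0.52. Of 11 tocopherol and tyrosine breakdown genes, 2 rose and 1 fell (median 0.05), or 27.3% called, near the 25.8% of all genes tested. HPT1, the phytyltransferase of vitamin E synthesis, had 32.1, 33.2 and 30.8 TPM in jazD, against 16, 18.9 and 18.2 TPM in Col-0 (0.93 ± 0.08).

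In arginine and polyamine metabolism a few enzymes rose strongly while most members did not pass. Of 22 listed genes, 18 were tested, and 5 rose and 3 fell (median 0.02), or 44.4% called against 25.8% of all genes tested. AACT1, the agmatine coumaroyltransferase that makes antifungal coumaroylagmatine, had 295, 302 and 270 TPM in jazD, against 2.65, 2.06 and 4.71 TPM in Col-0 (6.58 ± 0.24). ARGAH2, an arginase, had 892, 908 and 808 TPM in jazD, against 109.5, 97 and 137 TPM in Col-0 (3.00 ± 0.12, edgeR adjusted p = 1.21e-08). Both were several times higher in every jazD library than in any Col-0 library. The arginine decarboxylases ADC1 and ADC2, which make agmatine, each rose by 1.2. SPMS, a spermine synthase, and SPDS2, a spermidine synthase, fell by 0.59 and 0.34.

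Genes of leaf volatiles were rare transcripts that rose by large factors. Of 15 listed genes, 7 had enough counts to be tested. Of these, 5 rose (71.4%) and 0 fell, against 13.3% and 12.5% of all genes tested (median 2.35). HPL1, the hydroperoxide lyase of green leaf volatiles, had 14.1, 14.8 and 16.2 TPM in jazD, against 1.24, 1 and 2.55 TPM in Col-0 (3.28 ± 0.25). TPS10 (AT2G24210), a monoterpene synthase, had 2.82, 2.44 and 2.52 TPM in jazD, against 0.08, 0 and 0.11 TPM in Col-0, a log2 fold change of 5.3, and 5.92 without the third Col-0 library. BSMT1, which makes methyl salicylate, rose by 3.47, and by 5.19 without the third Col-0 library, and TPS04, which makes geranyllinalool, by 2.35. The jazD and Col-0 libraries did not overlap for HPL1 and TPS10.

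Redox enzymes moved in both directions. Of 22 ascorbate and glutathione genes, 21 were tested, and 9 rose (42.9%) and 5 fell (23.8%), against 13.3% and 12.5% of all genes tested (median 0.11), with 3 falls without the first jazD library. DHAR1, a cytosolic dehydroascorbate reductase, had 586, 567 and 587 TPM in jazD, against 138, 119 and 171 TPM in Col-0 (2.1 ± 0.10, edgeR adjusted p = 2.89e-08). MDAR2, a monodehydroascorbate reductase, had 168, 182 and 182 TPM in jazD, against 42.5, 50.5 and 54.7 TPM in Col-0 (1.92 ± 0.08). Both recycle oxidised ascorbate, and both were at least 3 times higher in the lowest jazD library than in the highest Col-0 library. The glutathione synthesis genes GSH1 and GSH2 rose by 0.59 and 1.21. In the mannose route to ascorbate, VTC1 rose by 0.67 and VTC4 fell by 0.38, and DHAR2, another reductase of the same family, fell by 0.82.

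In the oxidative pentose phosphate pathway, which makes NADPH, 1 gene changed far more than the others. Of 16 listed genes, 15 were tested, and 3 rose and 1 fell (median -0.10), or 26.7% called, near the 25.8% of all genes tested. PGL5, a phosphogluconolactonase, had 307, 336 and 299.5 TPM in jazD, against 8.96, 8.42 and 14.9 TPM in Col-0 (4.94 ± 0.19, edgeR adjusted p = 2.94e-07). The other rises were small, with TRA2, a transaldolase, at 0.32 and AT3G02360, a phosphogluconate dehydrogenase, at 0.31. G6PD6 stood at -0.30 (edgeR adjusted p = 0.0135, and 0.0638 without the first jazD library). The ranges of PGL5 did not overlap between genotypes.

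For the tricarboxylic acid cycle, 8 of 19 tested genes rose and 1 fell (median 0.14), or 47.4% called against 25.8% of all genes tested. The count of rises was 4 without the first Col-0 library, 5 without the first jazD library and 4 on the log2 TPM scale. FUM1, the mitochondrial fumarase, and ACO1 (AT4G35830), an aconitase, rose by 0.41 and 0.50. FUM2, the cytosolic fumarase that lets leaves store fumarate, had 22.2, 21.6 and 22.1 TPM in jazD, against 174, 168 and 172 TPM in Col-0 (-2.89 ± 0.06, edgeR adjusted p = 2.53e-12). It was the most extreme value of the list and also lies in a stretch of chromosome 5 described below with other large changes. In alternative respiration, 4 of 8 tested genes rose and 0 fell (median 0.31), against 13.3% higher and 12.5% lower of all genes tested. Of these rises, 1 did not pass without 1 or more single libraries, AOX1A at 0.41 (edgeR adjusted p up to 0.133). AOX1D, an alternative oxidase, had 3.85, 3.23 and 4.47 TPM in jazD, against 0.79, 0.89 and 0.52 TPM in Col-0 (2.47 ± 0.29), and PUMP1, an uncoupling protein, rose by 0.58.

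Some genes known from dark or sugar-starved leaves rose, and others did not pass. Of 23 listed genes, all tested, 9 rose (39.1%) and 0 fell, against 13.3% and 12.5% of all genes tested (median 0.21). The count of falls was 2 without the first or the second jazQ library. BCAT-2, a mitochondrial transaminase of branched-chain amino acids, had 44.4, 41.1 and 41.5 TPM in jazD, against 2.28, 2.18 and 1.95 TPM in Col-0 (4.39 ± 0.10, edgeR adjusted p = 7.69e-12). DIN11, a dark-inducible oxygenase, had 273, 283 and 259 TPM in jazD, against 5.35, 5.08 and 9.23 TPM in Col-0 (5.44 ± 0.32). GDH1, a glutamate dehydrogenase, rose by 0.87, and LKR, which breaks down lysine, by 1.2. BCAT-2 and DIN11 did not overlap between genotypes. EXL1, a sugar-starvation gene, had 3.09, 3.59 and 2.4 TPM in jazD, against 82.5, 23.7 and 4.1 TPM in Col-0, a wide spread within Col-0, and did not pass (-3.53, edgeR adjusted p = 0.131). DIN10, a raffinose synthase-like gene, did not pass either (-0.84, edgeR adjusted p = 0.441).

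For chlorophyll breakdown, 6 of 12 tested genes rose and 3 fell (median 0.14), or 75.0% called against 25.8% of all genes tested. Without any 1 library of jazD or Col-0, 0 or 1 fell. PPH, the pheophytinase, rose by 0.83 (edgeR adjusted p = 6.85e-07), and NYE2, a homolog of the Mg-dechelatase NYE1, by 1.56. CLH1, counted already among the wound proteins, had 379, 462 and 406 TPM in jazD, against 31, 36.1 and 59.3 TPM in Col-0. CLH2, its paralog, stood at -0.65 (edgeR adjusted p = 0.0299, and up to 0.102 without 1 library). The ranges of CLH1 did not overlap between genotypes.

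Among hormones other than jasmonate, the calls in abscisic acid and cytokinin genes were mostly falls. Of 17 abscisic acid genes, 1 rose, 6 fell and 10 were not called (median -0.20), against 13.3% higher and 12.5% lower of all genes tested. Of the 6 falls, 2 did not pass without 1 or more single libraries, ERD10 and RD29B. COR47, a dehydrin, had 104, 155 and 123 TPM in jazD, against 259, 257 and 263 TPM in Col-0 (-0.95 ± 0.14, edgeR adjusted p = 0.000959). RD29A and RD29B, stress protein genes of the chromosome 5 stretch described below, fell by 1.39 and 1.3. The catabolic genes CYP707A2 and CYP707A4 went in opposite directions, at -1.2 and 1.14. No jazD library reached the Col-0 range of COR47.

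Of 14 tested cytokinin genes, 10 fell (71.4%) and 2 rose (14.3%), against 12.5% and 13.3% of all genes tested (median -0.54). Type-A response regulators, which cytokinin induces, were prominent among the falls. ARR4 had 79.5, 77.1 and 76.4 TPM in jazD, against 138, 141 and 148 TPM in Col-0 (-0.80 ± 0.06, edgeR adjusted p = 3.04e-07). ARR16 had 4.2, 3.84 and 6.32 TPM in jazD, against 14.9, 15.4 and 16.7 TPM in Col-0 (-1.64 ± 0.19). ARR5, ARR6, ARR9 and ARR15 fell by 0.56 to 0.79, and IPT3, a synthesis enzyme, fell by 0.53. The cytokinin oxidases, which degrade the hormone, were split, with CKX5 and CKX4 at 1.19 and 0.58 and CKX7 at -0.88. ARR4 and ARR16 were lower in each jazD library than in any Col-0 library.

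Of 10 brassinosteroid genes, 2 rose and 5 fell (median -0.26), against 13.3% higher and 12.5% lower of all genes tested. The count of falls was 3 without jazD library 3. BES1, a transcription factor of the pathway, had 34.7, 33.4 and 33.7 TPM in jazD, against 55.3, 52.3 and 54.8 TPM in Col-0 (-0.60 ± 0.07, edgeR adjusted p = 2.04e-05), and the synthesis genes BR6OX2 and DWF4 fell by 0.86 and 0.50. ROT3, also a synthesis gene, rose by 0.82. For ethylene, 2 of 18 tested genes rose and 3 fell (median 0.05), or 27.8% called, near the 25.8% of all genes tested. The count of rises was 4 without the second jazQ library. EFE, an ACC oxidase that makes ethylene, had 446, 429 and 456 TPM in jazD, against 183, 204 and 195 TPM in Col-0 (1.27 ± 0.06), whereas its relative ACO1 (AT2G19590) fell by 0.89. The jazD and Col-0 libraries did not overlap for BES1 or EFE.

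Salicylate-linked genes moved both ways, and most of their calls rested on single libraries. Of 14 listed genes, 2 rose and 3 fell (median -0.16), or 35.7% called against 25.8% of all genes tested, and single libraries moved these counts to between 0 and 2 rises and between 1 and 5 falls. PR1, the main marker of salicylate responses, had 964, 818 and 1320 TPM in jazD, against 794, 1292 and 588 TPM in Col-0, and the genotypes overlapped (0.28 ± 0.36, edgeR adjusted p = 0.635). PR2, a glucanase, had 168, 127 and 239 TPM in jazD, against 423, 661 and 358 TPM in Col-0 (-1.36 ± 0.34, edgeR adjusted p = 0.0288, and 0.0606 to 0.0926 without 1 of 4 single libraries of either genotype). ICS2, a synthesis enzyme, had 1.68, 1.27 and 1.41 TPM in jazD, against 2.57, 2.35 and 3.03 TPM in Col-0 (-0.79 ± 0.18). PR2 and ICS2 were lower in each jazD library than in any Col-0 library. EDS5, a salicylate transporter, stood at 0.63 (edgeR adjusted p = 0.0239), with adjusted p of 0.052 to 0.0772 without 1 of 5 single libraries. Cysteine-rich receptor kinases, many of which respond to pathogens and salicylate, gave 5 rises and 10 falls among 35 tested (median -0.06). Their 42.9% called stand against 25.8% of all genes tested. CRK23 had 0.68, 0.79 and 0.92 TPM in jazD, against 3.43, 4.31 and 3.01 TPM in Col-0 (-2.07 ± 0.18). EMB1290 had 18.4, 18.9 and 16.6 TPM in jazD, against 9.75, 10.2 and 8.89 TPM in Col-0 (0.98 ± 0.09).

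**Figure D4:**
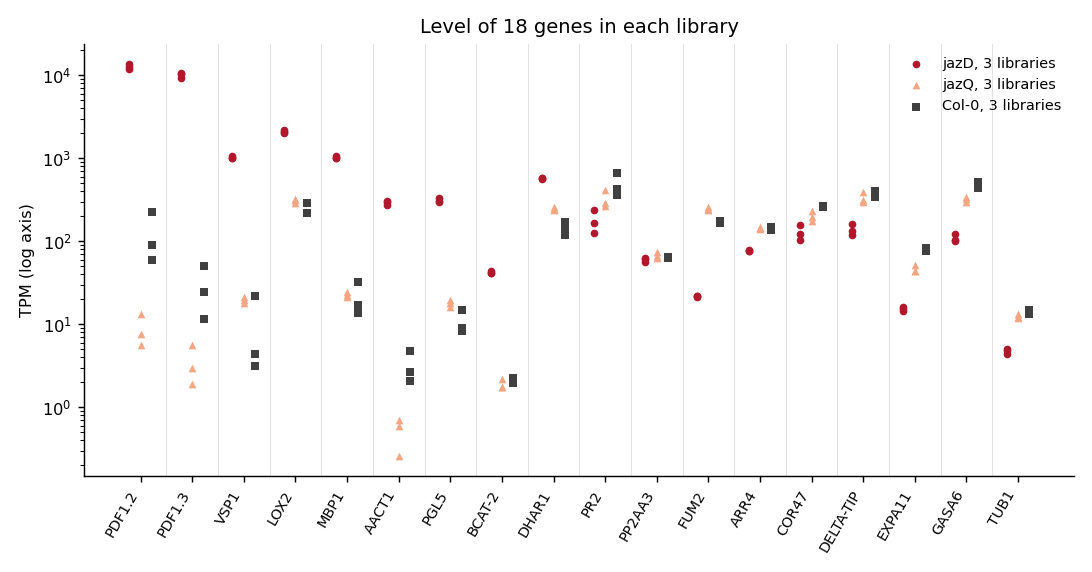
TPM on a log axis in each library for 18 genes, with jazD as circles, jazQ as triangles and Col-0 as squares. PDF1.2 and PDF1.3 stand far higher in every jazD library than in any Col-0 library, PP2AA3 lies at 56.7 to 63.7 TPM in jazD and 62.8 to 65.5 TPM in Col-0, and FUM2, EXPA11, GASA6 and TUB1 lie below Col-0.

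Families linked to cell expansion and the cell wall were lower, and 0 of their members rose in 6 of 7 families. Of 17 tested aquaporins, 9 fell (median -0.35), of 22 xyloglucan transglucosylases 10 fell (median -0.95), and of 13 fasciclin-like arabinogalactan proteins 9 fell (median -0.60). Of 14 SAUR auxin-responsive proteins 9 fell (median -0.78), of 9 beta-tubulins 5 fell (median -0.26) and of 4 GASA peptides 2 fell (median -0.93). Of 14 alpha-expansins 5 fell and 1 rose (median -0.20). The background was 13.3% of genes called higher and 12.5% called lower, and the median over all genes was -0.003. With 4 GASA peptides or 9 beta-tubulins tested, 0 rises lie near that 13.3% and are no result by themselves.

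Single members of these families show the size of the falls. EXPA11, a wall-loosening expansin, had 14.3, 15.4 and 16.3 TPM in jazD, against 80.6, 75.8 and 83.7 TPM in Col-0 (-2.31 ± 0.09, edgeR adjusted p = 7.44e-10). GASA6 had 102, 105 and 122 TPM in jazD, against 499, 444 and 524 TPM in Col-0 (-2.08 ± 0.08, edgeR adjusted p = 7.99e-10). TIP2;1, a tonoplast water channel listed as DELTA-TIP, had 162, 132 and 118 TPM in jazD, against 402, 352 and 342 TPM in Col-0 (-1.33 ± 0.16). Each of these genes was below the Col-0 range in all 3 jazD libraries. TUB1, a beta-tubulin, had 5.04, 4.4 and 4.79 TPM in jazD, against 15, 14.8 and 13.2 TPM in Col-0 (-1.52 ± 0.10), and XTH7, a xyloglucan transglucosylase, had 41.6, 34.8 and 36.2 TPM in jazD, against 87.1, 82.6 and 90 TPM in Col-0 (-1.13 ± 0.08). SAUR29 had 18.1, 15.4 and 15.5 TPM in jazD, against 35, 33.5 and 40.6 TPM in Col-0 (-1.07 ± 0.14). These 3 genes did not overlap between genotypes either.

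Not every member moved, and of the 49 falls in these 7 families 13 did not pass without 1 or more single libraries. These were PIP1C, EXPA6, EXPA8, XTH9, XTH15, XTH33, SAUR22, SAUR23, SAUR63, TUB7, FLA2, FLA7 and FLA12, and the other 36 passed whichever single library was left out. GASA4 stood at -0.02, TUB2 at 0.07 and EXPA1 at 0.06, and none of these 3 passed. EXPA9 stood at 0.41 (edgeR adjusted p = 0.0193), and at 0.34 (adjusted p = 0.0752 and 0.0885) without the third Col-0 or the first jazD library. XTH33 had 1.45, 0.75 and 0.67 TPM in jazD, against 29.9, 10.2 and 6.99 TPM in Col-0, with the first Col-0 library far above the others. Its log2 fold change of -3.93 (edgeR adjusted p = 0.0349) lost the call when 1 of 5 libraries was left out, the first or second of Col-0 or any of jazD (edgeR adjusted p 0.0541 to 0.106), and with limma-voom (adjusted p = 0.112). MCM proteins, the helicase subunits of DNA replication, gave 0 calls among 9 tested with edgeR (median -0.04), against 25.8% of all genes tested. They gave 1 at an unadjusted edgeR p under 0.05 and 0 calls with DESeq2. MCM6 stood at -0.23 and MCM2 at 0.07, and 1 MCM gene fell without the first jazD library or without the first or second jazQ library.

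**Figure D5:**
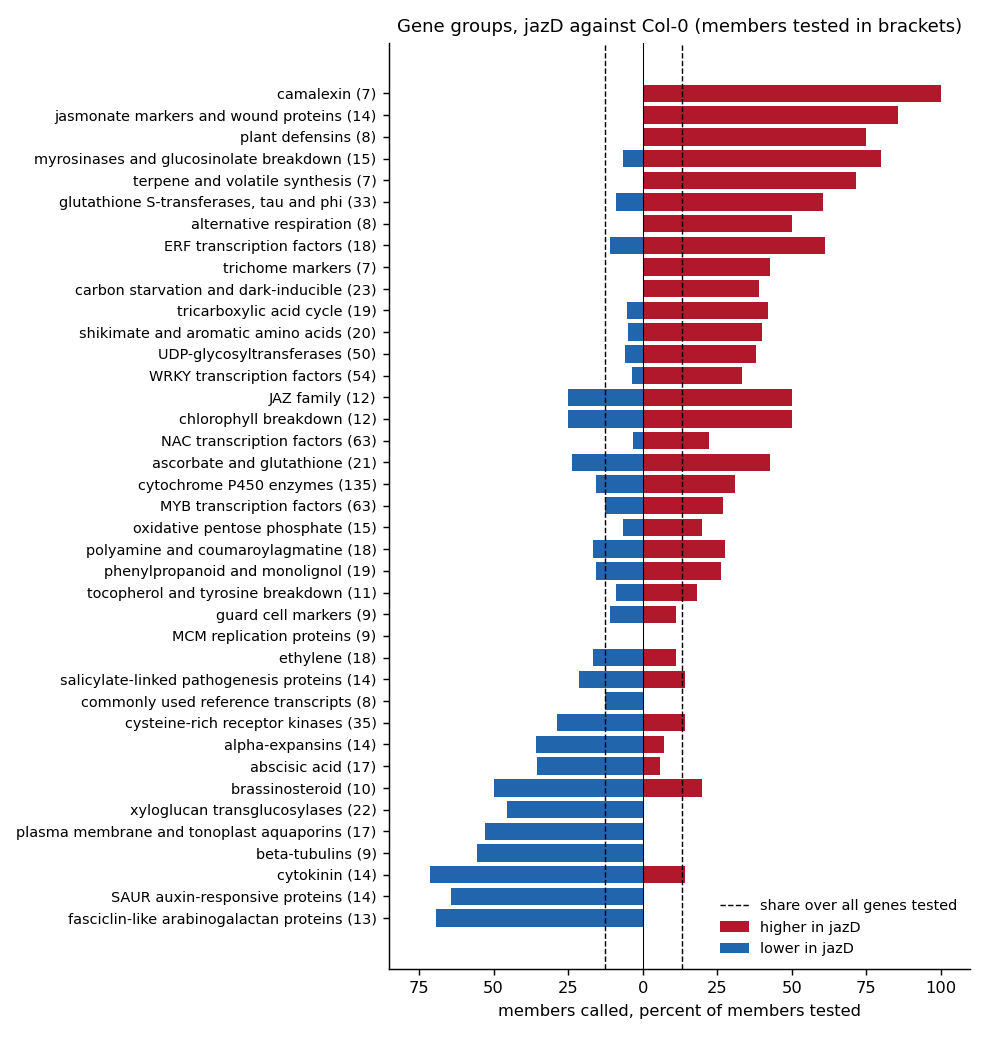
Percent of the tested members of each gene list and family called higher (to the right) or lower (to the left) in jazD, with dashed lines at the background of 13.3% higher and 12.5% lower over all genes tested. Camalexin genes, wound proteins and myrosinase-linked genes reach furthest to the right, and cytokinin genes, arabinogalactan proteins and SAUR genes furthest to the left.

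In 4 transcription factor families the share that rose was above the 13.3% of all genes tested, least securely for NAC genes. Of the rises, 5 of the NAC, 3 of the MYB, 2 of the ERF and 1 of the WRKY genes did not pass without 1 or more single libraries. Without those 5 the NAC share would lie close to 13.3%. Of 18 tested ERF genes, 11 rose (61.1%) and 2 fell (median 0.92). ERF4 had 67.6, 55.9 and 65.9 TPM in jazD, against 20.1, 19.2 and 19.3 TPM in Col-0 (1.77 ± 0.09, edgeR adjusted p = 9.18e-09), and ERF1, an activator of PDF1 genes, rose by 2.44, and by 3.26 without the second Col-0 library. Of 54 WRKY genes, 18 rose (33.3%) and 2 fell (median 0.19), with 5 falls without the third Col-0 library and WRKY26 at 32.7, 35.7 and 36 TPM in jazD, against 9.3, 8.85 and 9.21 TPM in Col-0 (2.01 ± 0.08). WRKY75 and WRKY45, both known from senescing or phosphate-starved tissue, rose by 2.81 and 2.87. Of 63 NAC genes, 14 rose (22.2%) and 2 fell (median 0.13), with 0 to 6 falls without single libraries of jazD or Col-0 and NAC3 (AT3G15500, also ANAC055), a known target of MYC factors, at 8.68, 10.1 and 9.07 TPM in jazD, against 0.53, 0.44 and 0.71 TPM in Col-0 (4.09 ± 0.19). NAP, a regulator of leaf senescence, rose by 1.51. CUC3, a boundary factor, stood at -2.71 (edgeR adjusted p = 0.0116, and 0.0552 without the first Col-0 library). Of 63 MYB genes, 17 rose (27.0%) and 8 fell (12.7%, against 12.5% of all genes; median 0.08), with 5 falls without library 1 or 2 of Col-0 or library 1 or 3 of jazD. MYB47 had 37.9, 54.8 and 43.4 TPM in jazD, against 1.15, 2.15 and 2.45 TPM in Col-0 (4.63 ± 0.27), MYB113, an anthocyanin activator, rose by 3.94 (5.14 without the third Col-0 library), and FLP, a stomatal lineage regulator, fell by 0.69. The genotypes did not overlap for ERF4, WRKY26, NAC3 or MYB47.

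Families of detoxifying and decorating enzymes rose in part. Of 33 tested tau and phi glutathione S-transferases, 20 rose and 3 fell (median 0.72), or 69.7% called against 25.8% of all genes tested. GSTF9 and GSTF10 were the most abundant of the named members, with 2154, 2413 and 2438 TPM in jazD, against 872, 992 and 1058 TPM in Col-0 for GSTF9 (1.34 ± 0.09). GSTF10 had 1294, 1346 and 1481 TPM in jazD, against 335, 379 and 398 TPM in Col-0 (1.96 ± 0.08, edgeR adjusted p = 8.7e-10). Of 50 UDP-glycosyltransferases, which attach sugars to small molecules, 19 rose and 3 fell (median 0.25), or 44.0% called. UGT71C3 was near 1 TPM in Col-0, with 19.6, 20.4 and 20.9 TPM in jazD, against 0.95, 1.01 and 1.01 TPM in Col-0 (4.43 ± 0.16). Of 135 cytochrome P450 genes, 42 rose and 21 fell (median 0.12), or 46.7% called, with CYP72A14 at 4.37 and CYP71B2 at -0.60. GSTF9, GSTF10 and UGT71C3 had no overlap between genotypes.

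Markers of other cell types and reference transcripts were counted beside these families. Of 7 trichome markers, 3 rose and 0 fell (median 0.40), or 42.9% against 13.3% of all genes tested, and 1 rose without the second Col-0, the first jazD or the second jazD library. GL3 stood at 1.34 (edgeR adjusted p = 0.0299), MYB106 at 0.84 (edgeR adjusted p = 0.0164) and GL2 at 0.31, with adjusted p over 0.05 without single libraries, up to 0.0945 for GL3, 0.0651 for MYB106 and 0.208 for GL2. Of 9 guard cell markers, 1 rose and 1 fell (median -0.25), or 22.2% called, near the 25.8% of all genes tested. These were FAMA at 0.39 and KAT1 at -0.68. Of 8 reference transcripts, 0 rose and 1 passed as lower (12.5%, as among all genes tested). This was ACT7 at -0.18 (edgeR adjusted p = 0.0361), which did not pass without any 1 of the 6 libraries (adjusted p up to 0.141). UBQ10 stood at 0.32 (edgeR adjusted p = 0.0503), and PP2AA3 had 56.7, 60.5 and 63.7 TPM in jazD, against 65.5, 62.8 and 64.8 TPM in Col-0 (-0.02 ± 0.06). On the log2 TPM scale 3 reference transcripts were called lower. Whether cell type composition had a part in the changes above was not tested.

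A small set of genes was close to silent in one genotype, here a mean under 0.3 CPM in one and over 2 in the other. There were 12 such genes near 0 in jazD and 24 near 0 in Col-0. Of the 12 near 0 in jazD, 10 lie on chromosome 5 between AT5G44490 and AT5G55790, and the other two are CER4, a fatty acyl reductase of wax synthesis, and CIB1, a cryptochrome-interacting factor. AT5G50565 had 0 counts over the jazD libraries and 736 over the Col-0 libraries, at least 248-fold lower when the jazD sum is set to a floor of 3 counts. AT5G49640 had 1 count in jazD and 776 in Col-0, a ratio of 786-fold lower in jazD with a 95% counting interval of 141 to 31000. In the other direction, AT5G28800 had 626 counts in jazD and 0 in Col-0, and AT5G47260, a nucleotide-binding resistance-like gene, had 625 in jazD and 0 in Col-0, each at least 206-fold higher with the same floor over the group. AT5G28810, next to AT5G28800 by its locus number and annotated with a domain of unknown function, had 1513, 1281 and 1419 counts in jazD. Among annotated genes near 0 in Col-0 were CSLA01, a glucomannan synthase, PGAZAT, an abscission polygalacturonase, DIN2, a beta-glucosidase, and MSL9, a mechanosensitive channel.

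The stretch from AT5G44490 to AT5G55790 held more calls than the rest of the genome. Of its 863 tested genes, 129 were higher and 195 lower, or 37.5% called, against 24.7% in the rest of chromosome 5 and 24.8% to 25.8% on chromosomes 1 to 4. Its ends were set by genes near silent in these data, so these shares are a description. Of the members counted above, 17 that were called lie in it, 6 higher and 11 lower. The higher ones are ERF2, ERF5, NSP5, CYP96A4, HGO and VTC5, and the lower ones are FUM2, SPMS, KAT1, RD29A, RD29B, HCT, FLA1, TAT7, CYP706A3, NAC097 and TTR1, which is 1 of the 2 WRKY falls. LHCB3 lies in it too, and PDF1.2 (AT5G44420) and PDF1.2c (AT5G44430) lie just before its start by locus number. The genotype of this stretch was not read here, so linkage and loss of JAZ proteins cannot be told apart for these genes. The DNA beside the mutated JAZ genes was not read either. By locus number, GASA6 and TUB1 lie near JAZ2, GER1 near JAZ6, and BES1, DHAR1 and EXPA11 near JAZ1. What part linkage had in the changes of genes near mutated JAZ genes was not tested. Outside the stretch, 2451 of 18542 genes were higher and 2231 lower, or 25.3% called.

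The quintuple mutant jazQ gives the same genes with 5 JAZ mutations in place of 10. The comparisons share libraries, so their values are set side by side and no overlap between them is tested. Of the 19405 genes, 5596 (28.8%) were called between jazD and jazQ, with 2918 higher and 2678 lower in jazD, and 5.69% were called at a change of at least 2-fold. Between jazQ and Col-0, 247 genes (1.27%) were called, and at least 2-fold changes were called for 51 higher (0.263%) and 22 lower (0.113%) in jazQ. PDF1.2 had 7.73, 5.61 and 13.3 TPM in jazQ, and its log2 fold changes were 10.5 for jazD over jazQ and 6.76 for jazD over Col-0. LOX2 had 288, 313 and 328 TPM in jazQ, with 2.82 for jazD over jazQ and 3.19 for jazD over Col-0. NSP1 gave 2.40 over jazQ and 2.86 over Col-0, and BCAT-2 gave 4.54 over jazQ and 4.39 over Col-0. These 4 genes were thus higher in jazD against both other genotypes. Among the falls, FUM2 gave -3.42 over jazQ and -2.89 over Col-0, EXPA11 gave -1.53 over jazQ and -2.31 over Col-0, and GASA6 gave -1.49 over jazQ and -2.08 over Col-0. By list, 11 of 14 wound genes, 5 of 8 tested defensins and 7 of 7 camalexin genes were higher in jazD than in jazQ, against 15.0% of all genes. Lower in jazD than in jazQ were 10 of 17 tested aquaporins and 9 of 14 tested cytokinin genes, against 13.8% of all genes. Some lists gave fewer falls against jazQ than against Col-0: SAUR genes 3 and 9, abscisic acid genes 3 and 6, brassinosteroid genes 2 and 5. Others gave more: arabinogalactan proteins 10 and 9, GASA peptides 3 and 2. Between jazQ and Col-0, the wound, defensin and camalexin lists gave 1, 0 and 2 rises, against 0.861% of all genes. Aquaporins and cytokinin genes gave 0 falls there, against 0.412% of all genes. Myrosinase-linked genes gave 5 rises among 15 tested between jazQ and Col-0, and their share of all TPM averaged 0.861% in jazD, 0.728% in jazQ and 0.455% in Col-0.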

How the data were processed

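RNA-seq of whole rosettes was deposited as 2 tables per gene: expected counts and TPM, which the authors made with RSEM 1.2.25 and TAIR10, per the submitters' processing notes. Other steps of the authors are not given in the sources used. Groups and replicate numbers came from the sample titles. The labels call the 3 libraries of a genotype biological replicates, each a pool of plants.

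The deposited expected counts, of which 69.11% to 72.61% per library were whole numbers, were rounded and fitted with edgeR 4.0.16 in R 4.3.3: TMM scaling, genes kept by filterByExpr at a minimum count of 10, a quasi-likelihood fit over all 9 libraries and Benjamini-Hochberg adjustment over 19405 genes. The fit gave a common coefficient of variation of 9.03%. The deposited TPM were used for levels, pool shares and an alternative fit with limma 3.58.1, and DESeq2 1.42.0 was another alternative. The results under 18 alternative settings, including the replicate number as a block, are given at the end. Intervals and floors cover counting error only.

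The 26 gene lists and 16 symbol-based families, their members and the tests were chosen with earlier results of these data known. After the files' own descriptions were read, 4 list identifiers and 4 symbol matches of other proteins were dropped. Named genes were all JAZ genes, the members of each list and family with the smallest p in each direction, and the 10 largest rises, falls, gains and losses. Other list members, and genes near 0 in one genotype, were named after their values were seen. Promoter windows were read from TAIR10.1 by locus identifier.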

Additional observations from a re-analysis of the deposited data

How the results depend on the processing

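Over 18 alternative settings, 128 named genes gave 2284 values of jazD against Col-0, of which 2200 kept direction and call, 70 lost the call, 14 gained it and 0 changed direction. Between jazD and Col-0, leaving out 1 library gave 2011 to 2707 higher and 1717 to 2555 lower genes, of which 770 to 836 and 326 to 451 differed by at least 2-fold. Between jazD and jazQ the ranges were 2342 to 3023 and 1941 to 2725, and at least 2-fold 800 to 862 and 257 to 321. With only genes of a mean of at least 5 CPM, which tests 14522 genes, at least 2-fold changes numbered 429 higher and 178 lower against Col-0, and 455 higher and 119 lower against jazQ. On the log2 TPM scale with a pseudocount of 1, 161 genes were at least 2-fold lower against jazQ. That scale shrinks the fold of low genes. Without the chromosome 5 stretch, 2451 genes were higher and 2231 lower against Col-0. Most list counts that changed by over 1.5 times were of 5 or fewer genes.

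With the replicate number as a block, 3029 genes were higher and 3026 lower against Col-0. The correlations of deviations between same-numbered jazD and Col-0 libraries were 0.161, 0.046 and 0.165. Each of these libraries correlated best with its own number, a hint from the data and not from the design, and the numbers were not taken to pair the samples. Under the block 17 xyloglucan transglucosylases fell. In the lowest bin, up to 3.64 CPM, the median called change was 1.229 on the log2 scale. What part sequencing depth had in this was not tested.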
